A study of Mus musculus with 9 samples.

Results

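Transcripts of 10 AP-1 and EGR immediate early genes were examined in kidney progenitor cells that lack mitochondrial (mt) complex III subunit QPC. The members were taken by symbol (*Fos*, *Fosb*, *Fosl1*, *Fosl2*, *Jun*, *Junb*, *Jund*, *Egr1*, *Egr2* and *Ier2*), and all 10 were found among the 26858 genes of the deposited read counts. Cells that express a fusion of eGFP and Cre recombinase from a *Six2* bacterial artificial chromosome transgene were sorted on eGFP fluorescence from mouse kidneys at E18.5. Control cells came from heterozygous Six2-Qpc+/- embryos (4 libraries, numbered 71, 72, 73 and 76 in the labels), so controls carried the transgene and inactivation of 1 *Qpc* allele as well, and mutant cells came from Six2-Qpc-/- embryos with both floxed alleles (5 libraries, numbered 74, 75, 77, 78 and 79). No batch, litter or sorting day is given in the labels. The numbers of libraries are those of the mice per genotype that the study gives.

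Immediate early genes are transcribed within minutes of a growth factor, stress or mechanical stimulus, without new protein synthesis, and their short-lived RNAs decay soon after. FOS and JUN proteins are basic leucine zipper (bZIP) factors that pair to form AP-1, EGR proteins are zinc finger factors induced mainly through ERK and serum response factor, and IER2 is a small nuclear protein induced by the same signals. The same transcripts are also known to be induced when tissue is dissociated and sorted.

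RefSeq start regions on build GRCm38.p6 were searched for 7 of the 10 genes (*Fos*, *Fosb*, *Fosl2*, *Jun*, *Junb*, *Jund* and *Egr2*). *Fosl1* and *Ier2* had no matched start region. *Egr1* was left out of the search, so the counts of matches below do not cover it. The 100 bases before the annotated start are shown for *Fos*, *Fosb*, *Jun* and *Egr2*, each of which holds a match to a short sequence searched here. CREB/ATF, AP-1 and serum response factors are known to act on such genes through sequences of these kinds. Of the 4 printed, only *Egr2* holds a CArG box. Capitals mark TGACG (part of a cyclic AMP response element), TGACNTCA (a longer site of the same kind) and the CArG box bound by serum response factor, each searched on both strands.
Fos, chr12:85473790-85473889, plus strand: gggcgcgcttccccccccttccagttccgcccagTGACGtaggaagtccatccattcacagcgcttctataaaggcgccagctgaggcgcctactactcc
Fosb, chr7:19310046-19310145, minus strand: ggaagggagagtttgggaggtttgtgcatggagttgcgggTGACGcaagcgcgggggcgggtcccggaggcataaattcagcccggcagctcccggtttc
Jun, chr4:95052223-95052322, minus strand: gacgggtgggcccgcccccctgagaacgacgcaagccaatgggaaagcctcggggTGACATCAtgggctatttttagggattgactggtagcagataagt
Egr2, chr10:67537769-67537868, plus strand: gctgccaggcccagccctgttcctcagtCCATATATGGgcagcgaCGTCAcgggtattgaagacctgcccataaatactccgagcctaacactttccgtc
*Egr2* has 5 start regions in RefSeq, and the one with the most matches was printed. Over the 250 bases before the start, TGACG was found in 4 of the 7 genes (*Fos*, *Fosb*, *Junb* and *Egr2*) and in 19.8% of all 27025 genes with a start region. TGACNTCA was found in *Jun* and in 8.55% of all genes, and the CArG box in *Egr2* and in 1.62% of all genes. TGACG and TGACNTCA overlap where N is G. A match describes the letters in this window only, and sites farther from the start were not searched.

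Most of the 10 genes were higher in control replicates 71, 72 and 73 than in mutant libraries, and control replicate 76 was the lowest control library for 9 of them. The 10 genes together took 0.317%, 0.403% and 0.402% of the reads in control replicates 71, 72 and 73, and 0.0886% in control replicate 76. In mutant replicates 74, 75, 77, 78 and 79 the share was 0.117%, 0.145%, 0.0644%, 0.0832% and 0.0722%. Every mutant library was therefore under control replicates 71, 72 and 73, and control replicate 76 lay inside the mutant range. Results for the 10 genes are given with all libraries and without this library. Control replicate 76 was singled out by its low values for these same genes, so results without it are partly fixed by that choice. In the quasi-likelihood test of edgeR over 14990 genes, with Benjamini-Hochberg adjustment, 3 of the 10 genes (*Fosb*, *Jun* and *Ier2*) fell in mutant cells at an adjusted p-value under 0.05, and 0 rose. At an unadjusted p-value under 0.05 there were 7, with 0 of them higher, beside 4709 of all 14990 tested genes in either direction. At the adjusted threshold 7.02% of all tested genes fell and 7.82% rose. Without control replicate 76, 7 of the 10 fell (*Fos*, *Fosb*, *Jun*, *Junb*, *Jund*, *Egr1* and *Ier2*), against 6.77% of all genes tested. Other methods were run on all libraries. DESeq2 called 6 of the 10 lower (*Fosb*, *Jun*, *Junb*, *Jund*, *Egr1* and *Ier2*), against 1436 (5.35%) of 26858 genes, a larger set than the 14990. In edgeR without robust estimation 6 were called lower (against 7.03% of 14990). With limma-voom 7 were called (against 16.4% of 14990). *Ier2* was the 1 gene called without a filter on low counts (against 3.44% of 26858) and with 1 surrogate variable (against 9.91% of 14990). The median log2 fold change of the 10 genes was −1.25 with all libraries, and that of all tested genes was −0.0085.

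The libraries were otherwise of like depth, with 21040536 to 23986458 counted reads each. The targeted gene *Uqcrq*, which encodes QPC, had 76.8 to 107 CPM (counts per 1000000 reads of the normalized library) in control and 16.5 to 28.2 CPM in mutant libraries, so control replicate 76 had the level of its label. The summed level of 10 nephron progenitor markers was 2325 to 2829 CPM in control and 2325 to 2788 CPM in mutant libraries. Stromal markers summed to 138 to 236 CPM in control and 291 to 833 CPM in mutant libraries, with 5 of 10 higher in mutant cells (7 without control replicate 76), and myeloid markers to 2.47 to 12.6 CPM and 10.3 to 136 CPM, with 2 of 7 higher (4 without control replicate 76). Differentiating nephron markers summed to 178 to 257 CPM and 136 to 264 CPM, with 1 of 6 lower (2 without control replicate 76). That 1 was *Lhx1* (log2 fold change −2.36, adjusted p = 0.00102, edgeR). Endothelial markers summed to 14.6 to 17.5 CPM and 12.5 to 18.1 CPM, with 1 of 6 higher and 1 lower. Of ureteric bud and erythroid markers, 0 of 4 and 0 of 1 were called. Among all tested genes 7.82% were higher and 7.02% lower in mutant cells. Without control replicate 76, 1243 of 15306 were higher and 1036 lower. Control replicate 76 was the highest control library for the progenitor, stromal and myeloid sums. The part of these cells in the results below was not tested. As in any bulk sample, fewer cells with a transcript and less of it per cell cannot be told apart.

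**Figure D1:**
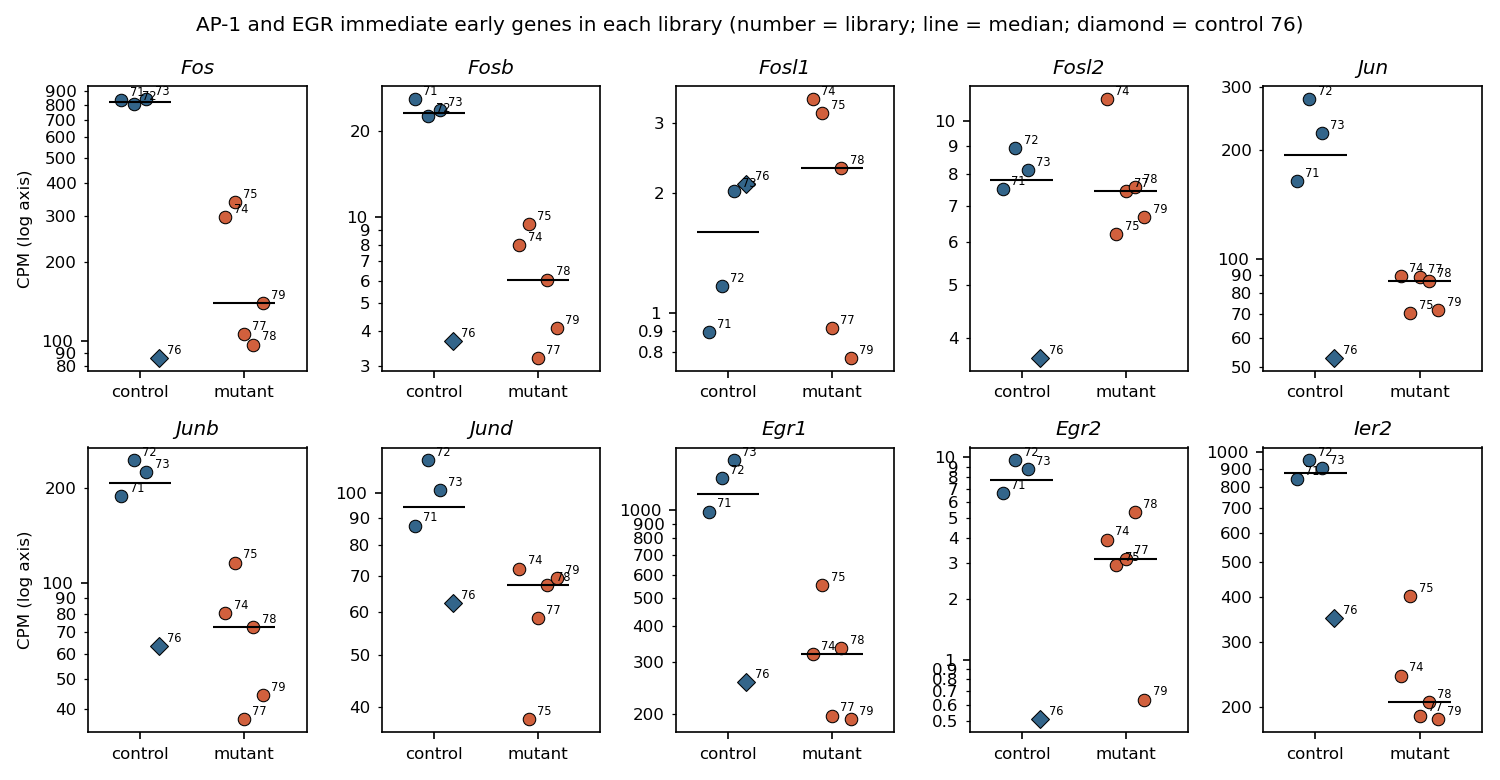
Level of each of the 10 genes in CPM on a log axis, with 1 point per library, labelled by its number, for control (blue, n = 4) and mutant cells (orange, n = 5), and a line at the median. Control replicate 76, drawn as a diamond, lies below the other 3 control libraries for 9 of the 10 genes, all except *Fosl1*.

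*Fos* (ENSMUSG00000021250, chromosome 12, 85473890 to 85477273), the founding member of its family, had 836, 802 and 842 CPM in control replicates 71, 72 and 73 and 85.9 CPM in control replicate 76. In mutant replicates 74, 75, 77, 78 and 79 it had 298, 340, 106, 96.7 and 140 CPM. The 3 high control libraries agreed closely, at 827 ± 21.4 CPM (SD, n = 3), whereas control replicate 76 was 9.62-fold below them and below all 5 mutant libraries. With all libraries the log2 fold change was −1.71 (standard error, SE, 0.67, adjusted p = 0.123, edgeR), which did not pass the threshold. Without control replicate 76 it was −2.07 (SE 0.40, adjusted p = 0.0107, edgeR), a 4.19-fold lower fitted level in mutant cells, and all 5 mutant libraries were below the 3 control libraries. With any other library left out, *Fos* did not pass the threshold, with adjusted p-values up to 0.263.

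*Fosb* (ENSMUSG00000003545, chromosome 7, 19302721 to 19310045) encodes a close relative of FOS that also gives rise to the stable variant ΔFosB by splicing, which gene counts do not separate. It had 26.0, 22.6 and 23.8 CPM in control replicates 71, 72 and 73, 3.67 CPM in control replicate 76, and 8.01, 9.48, 3.21, 6.05 and 4.08 CPM in mutant replicates 74, 75, 77, 78 and 79. As for *Fos*, control replicate 76 was far below the other control libraries, and here it lay within the mutant range. The values rested on 63 to 610 reads per library. *Fosb* fell in mutant cells by 1.62 on the log2 scale (SE 0.46, adjusted p = 0.0339, edgeR). The call was lost when any of 7 libraries was left out (control replicates 71, 72 or 73, or mutant replicates 74, 77, 78 or 79), with adjusted p-values from 0.0517 to 0.100. Without control replicate 76 *Fosb* fell by 1.96 (adjusted p = 0.00235).

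*Fosl1* and *Fosl2* encode FRA-1 and FRA-2, the FOS proteins without a strong activation domain, which tend to accumulate later after a stimulus. *Fosl1* (chromosome 19, 5447703 to 5455945) had 0.895, 1.17, 2.02 and 2.11 CPM in control replicates 71, 72, 73 and 76 and 3.45, 3.19, 0.918, 2.31 and 0.771 CPM in mutant replicates 74, 75, 77, 78 and 79. These values came from 17 to 81 reads per library, and the genotypes overlapped (log2 fold change 0.46, SE 0.48, adjusted p = 0.548, edgeR). *Fosl1* was the only member for which control replicate 76 was the highest control library. Its exons overlap those of *Ccdc85b* on the opposite strand over 1163 bp, so its few reads cannot be assigned with certainty in libraries without strand information. *Fosl2* (chromosome 5, 32136472 to 32157831) had 7.50, 8.92, 8.13 and 3.67 CPM in control replicates 71, 72, 73 and 76 and 10.995, 6.20, 7.45, 7.58 and 6.67 CPM in mutant replicates 74, 75, 77, 78 and 79. Its log2 fold change was 0.14 (SE 0.27, adjusted p = 0.760, edgeR) and −0.06 without control replicate 76 (SE 0.23, adjusted p = 0.878), both smaller than their standard errors.

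*Jun* (ENSMUSG00000052684, chromosome 4, 95049034 to 95052222), which encodes the main activating partner of FOS, had 164, 278 and 223 CPM in control replicates 71, 72 and 73 and 53.0 CPM in control replicate 76. Mutant libraries were close to each other, with 89.5, 70.6, 89.0, 86.5 and 71.96 CPM in mutant replicates 74, 75, 77, 78 and 79. Control replicate 76 was thus below all 5 mutant libraries, and the other 3 control libraries were above all of them. *Jun* fell by 1.14 on the log2 scale (SE 0.35, adjusted p = 0.0488, edgeR). The call was lost when any library other than control replicate 76 was left out (control replicates 71, 72 or 73, or mutant replicates 74, 75, 77, 78 or 79), with adjusted p-values from 0.0828 to 0.153, and without control replicate 76 *Jun* fell by 1.43 (SE 0.16, adjusted p = 0.000564). The exons of the antisense gene *Junos* overlap those of *Jun* over 232 bp, and *Junos* had 11 to 33 reads per library.

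*Junb* (ENSMUSG00000052837, chromosome 8, 84976909 to 84978748), a partner that activates some AP-1 targets and restrains others, had 188, 244, 224 and 63.2 CPM in control replicates 71, 72, 73 and 76. In mutant replicates 74, 75, 77, 78 and 79 it had 80.6, 116, 37.2, 72.9 and 44.3 CPM. Its log2 fold change of −1.36 (SE 0.42, adjusted p = 0.0571, edgeR) missed the threshold with all libraries, and it passed without control replicate 76 (−1.63, adjusted p = 0.00695) or without mutant replicate 75 (−1.61, adjusted p = 0.0317). *Jund* (chromosome 8, 70697739 to 70700616), the constitutively expressed JUN protein, had 87.0, 115, 101 and 62.5 CPM in control replicates 71, 72, 73 and 76. In mutant replicates 74, 75, 77, 78 and 79 it had 72.4, 37.9, 58.5, 67.5 and 69.6 CPM. Its log2 fold change was −0.58 (SE 0.20, adjusted p = 0.0654, edgeR). It passed the threshold without control replicate 76 (−0.71, adjusted p = 0.0260) or without mutant replicate 74 (−0.65, adjusted p = 0.0387). The identifier printed for *Jund* in the deposited table is not that of *Jund* in GENCODE M21, and the gene was matched by symbol. Exons of the antisense gene *Gm11175* overlap those of *Jund* over 877 bp, and reads of the pair cannot be told apart without strand information.

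*Egr1* (ENSMUSG00000038418, chromosome 18, 34859823 to 34864984), the founding zinc finger factor of the EGR family, had 990, 1292, 1483 and 257 CPM in control replicates 71, 72, 73 and 76. Mutant replicates 74, 75, 77, 78 and 79 had 321, 555, 197, 337 and 191 CPM. Control replicate 76 lay within the mutant range, and the other 3 control libraries were above it. The log2 fold change of −1.65 (SE 0.49, adjusted p = 0.0546, edgeR) just missed the threshold. It passed without control replicate 76 (−1.96, adjusted p = 0.00311) or without mutant replicate 75 (−1.94, adjusted p = 0.0379). *Egr2* (ENSMUSG00000037868, chromosome 10, 67535475 to 67542188), best known from Schwann cell and hindbrain development, was weakly expressed, with 156, 248, 208 and 12 reads in control replicates 71, 72, 73 and 76 and 92, 66, 62, 109 and 14 reads in mutant replicates 74, 75, 77, 78 and 79. Control replicate 76 and mutant replicate 79 stood apart from the other 7 libraries. The genotypes overlapped (log2 fold change −0.999, SE 0.64, adjusted p = 0.313, edgeR), and without control replicate 76 the adjusted p-value was 0.0561 (log2 fold change −1.37).

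*Ier2* (ENSMUSG00000053560, chromosome 8, 84661331 to 84662852) gave the difference least affected by the choice of libraries. It had 841, 947, 904 and 350 CPM in control replicates 71, 72, 73 and 76 and 244, 403, 189, 206 and 184 CPM in mutant replicates 74, 75, 77, 78 and 79. Control replicate 76 was again the lowest control library but stayed above 4 of the 5 mutant libraries. *Ier2* fell by 1.63 on the log2 scale (SE 0.29, adjusted p = 0.00431, edgeR), a 3.10-fold lower fitted level in mutant cells. It passed the threshold whichever library was left out, with log2 fold changes from −1.89 to −1.51 and adjusted p-values up to 0.0221. Without control replicate 76 the fitted level was 3.63-fold lower.

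**Figure D2:**
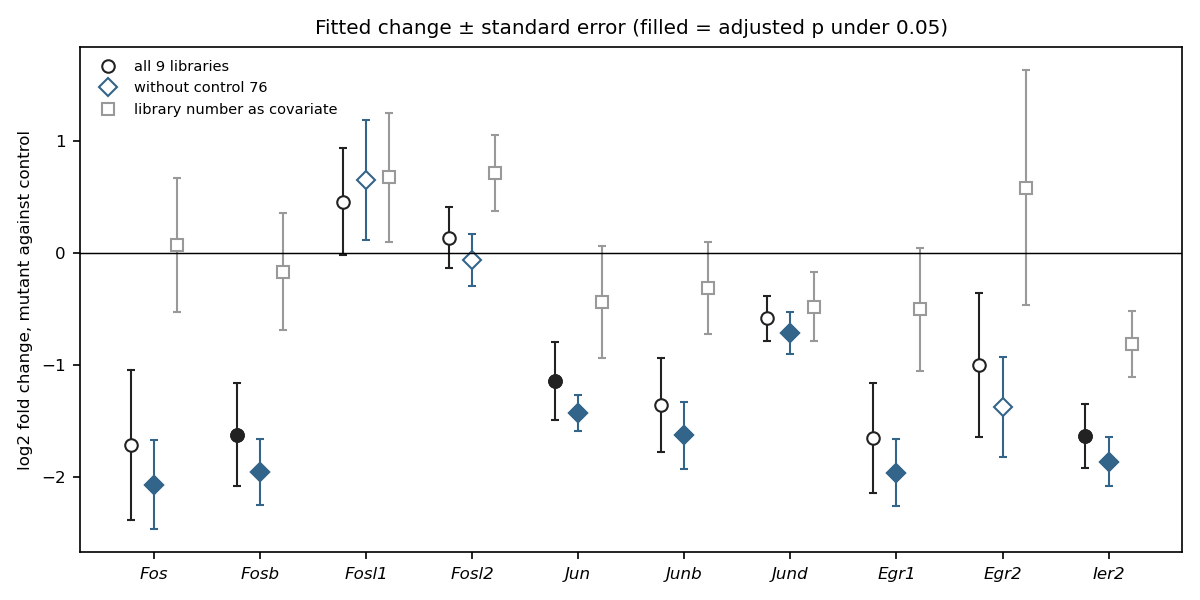
Log2 fold change of mutant against control ± standard error for each gene in 3 edgeR fits, with all 9 libraries (circles), without control replicate 76 (diamonds) and with the library number of the labels as a covariate (squares), filled where the adjusted p-value was under 0.05. Leaving out control replicate 76 turns 3 filled points into 7, and no square is filled.

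With all libraries the genotypes overlapped for all 10 genes, whereas 7.73% of all tested genes were lower in every mutant than in every control library. Without control replicate 76, 8 of the 10 genes (all except *Fosl1* and *Fosl2*) were lower in every mutant library, against 11.6% of all tested genes. Control replicate 76 was below the lowest of the other 3 control libraries by more than 2-fold for 8 of the 10 genes (*Fos*, *Fosb*, *Fosl2*, *Jun*, *Junb*, *Egr1*, *Egr2* and *Ier2*) and for 422, or 2.82%, of all tested genes. For control replicates 71, 72 and 73 taken in the same way, 0 of the 10 genes were that far below the rest, and 1.40%, 0.974% and 1.23% of all genes were. All these counts describe the library after its values were seen. The separation of the 10 genes without control replicate 76 is partly fixed by the choice of that library, unlike the share of all tested genes.

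Libraries of mutant cells also differed among themselves. Mutant replicate 75 was the highest mutant library for 5 of the 10 genes and mutant replicate 74 for 4, while mutant replicate 79 was the lowest for 4, mutant replicate 75 for 3 (*Fosl2*, *Jun* and *Jund*), mutant replicate 77 for 2 and mutant replicate 78 for 1. *Fos* was at 298 and 340 CPM in mutant replicates 74 and 75 and at 96.7 to 140 CPM in mutant replicates 77, 78 and 79. For *Fos*, control replicates 71 to 73 also stood above control replicate 76. Mutant replicates 74 and 75 were likewise both above the other mutant libraries for *Fosb*, *Fosl1*, *Junb* and *Ier2*. They were not for *Fosl2*, *Jun*, *Jund*, *Egr1* and *Egr2*. What the library numbers stand for is not given in the labels. When the number was added to the edgeR model as a covariate, 0 of the 10 genes passed the threshold. At an unadjusted p-value under 0.05 there was 1 (*Ier2*), beside 2323 of all 14990 tested genes. In that model the log2 fold change was −0.81 for *Ier2*, −0.50 for *Egr1*, −0.43 for *Jun* and 0.07 for *Fos*. The number and the genotype are partly confounded. Of all genes, 0.574% fell in this model, and the share of all genes that passed dropped to 1.95%, from 14.8% without the covariate.

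The spread between libraries of a genotype was large for several members. The biological coefficient of variation that edgeR estimated was 0.659 for *Fos*, 0.662 for *Egr2*, 0.497 for *Egr1* and 0.475 for *Fosb*, which put *Fos* at the 97.0th and *Egr1* at the 91.0th percentile of all tested genes. *Jund*, at 0.217, was at the 50.6th percentile, and *Ier2*, at 0.300, at the 68.7th.

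Levels between genes were compared per length, as CPM per kilobase. In control cells the order was *Ier2* (499 ± 182), *Fos* (304 ± 176), *Egr1* (224 ± 120), *Junb* (97.7 ± 44.0), *Jun* (56.3 ± 30.2), *Jund* (31.8 ± 7.80), *Fosb* (5.07 ± 2.75), *Egr2* (2.16 ± 1.39), *Fosl2* (1.20 ± 0.398) and *Fosl1* (0.907 ± 0.357; SD, n = 4 each). Mutant cells had the same order for the upper 7 genes, from *Ier2* at 161 ± 59.9 to *Fosb* at 1.64 ± 0.698 CPM per kilobase (SD, n = 5). *Ier2* was above *Fos* and *Egr1* above *Junb* in all 9 libraries, whereas *Fos* was above *Egr1* in 7, and *Egr2* was above *Fosl2* in 4 of 9, so the lowest 3 genes cannot be ordered. Of the length-scaled level of the 4 FOS family genes, *Fos* itself made up 91.5% to 97.9% in every library. The ratio of *Fos* to *Fosb* was 57.2, 63.1 and 63.1 in control replicates 71, 72 and 73, 41.7 in control replicate 76 and 28.4 to 66.1 in mutant libraries. The summed FOS family level was 1.499 to 2.20 times that of the JUN family in control replicates 71, 72 and 73, 0.600 times in control replicate 76, and 0.556 to 1.69 times in mutant libraries. Within the JUN family the share of *Jund* was 15.4% to 16.4% in control replicates 71, 72 and 73 and 29.9% in control replicate 76, beside 13.4% to 34.1% in mutant libraries.

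**Figure D3:**
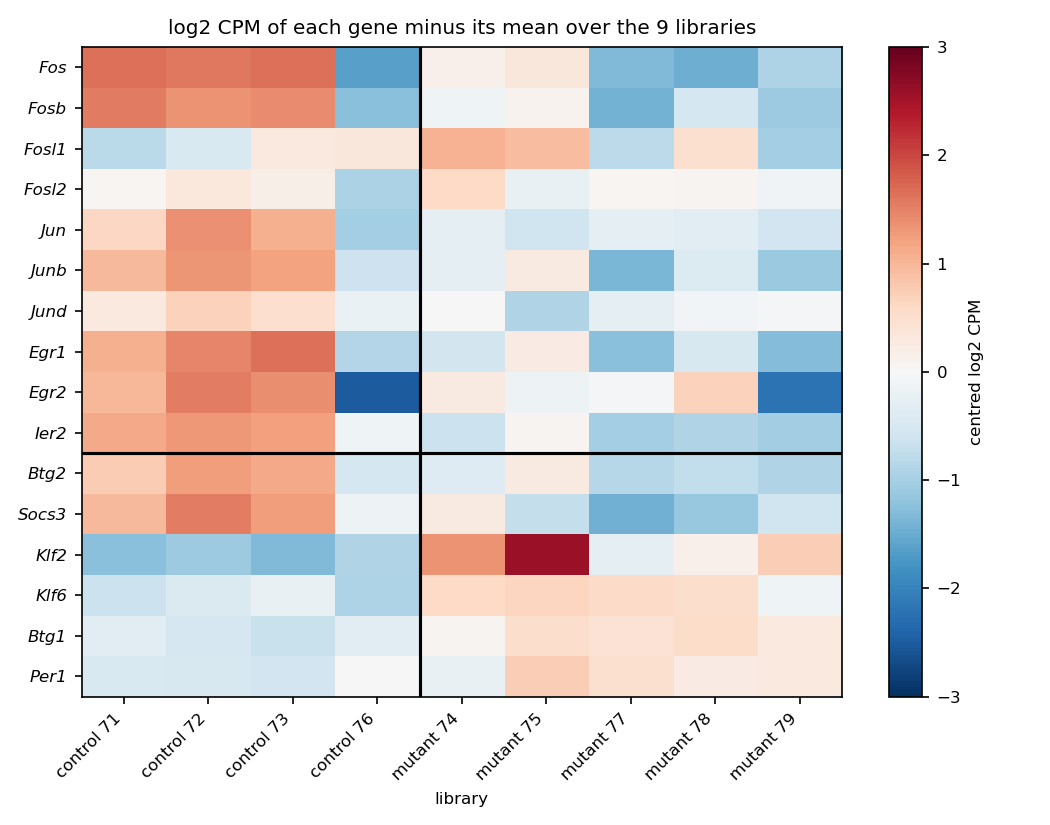
Log2 CPM of each gene minus its mean over the 9 libraries, with libraries in columns (4 control, then 5 mutant) and the 10 genes above the 6 other immediate early genes that passed the threshold. All of the 10 genes except *Fosl1*, as well as *Btg2* and *Socs3*, are above their mean in control replicates 71 to 73 and below it in control replicate 76. In contrast, *Klf2*, *Klf6* and *Btg1* are below their mean in all 4 control libraries.

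The genes with profiles over the 9 libraries nearest to those of *Fos*, *Egr1* and *Jun* were ranked. Likeness was measured as the root mean square difference of centred log2 CPM, among 9348 other genes averaging 10 CPM or more. For *Fos*, whose own values had a root mean square of 1.32, the nearest were *Fosb* (0.382), *Egr1* (0.532), *Junb* (0.588), *Btg2* (0.620) and *Rmst* (0.631). For *Egr1* they were *Junb* (0.218), *Fosb* (0.279), *Btg2* (0.323), *Ier2* (0.346) and *Rmst* (0.510). For *Jun* they were *Rmst* (0.245), *Rhpn2* (0.326), *Mycn* (0.354), *Car12* (0.367) and *Trim16* (0.369). This measure depends on how far the values vary as well as on their pattern. The root mean square of *Jun* itself was 0.771, and *Fos*, at 0.783, was at rank 3939 for *Jun*. In the other direction *Jun* was at rank 11 for *Fos* and at rank 13 for *Egr1*.

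Other immediate early genes did not move as a block. Of 33 genes listed, 30 were tested, and their median log2 fold change was −0.02, with 13 fitted values above 0 and 17 below. In mutant cells 4 rose and 2 fell, beside 7.82% and 7.02% of all tested genes. Without control replicate 76, 4 rose and 4 fell, beside 1243 and 1036 of all 15306 genes tested. *Socs3*, a feedback inhibitor of cytokine signaling, fell by 1.64 (SE 0.37, adjusted p = 0.0163, edgeR) from 110 ± 46.3 to 35.4 ± 17.5 CPM (SD, n = 4 and 5). *Btg2*, an antiproliferative gene, fell by 1.25 (adjusted p = 0.0301), from 222 ± 96.8 to 93.2 ± 35.4 CPM, and control replicate 76 had 88.1 CPM. The call of *Socs3* was lost without control replicate 72 (adjusted p = 0.0596), and that of *Btg2* without any of control replicates 71, 72 or 73 or mutant replicates 74, 77, 78 or 79 (adjusted p from 0.0599 to 0.111). In contrast, *Btg1* rose by 0.85 (adjusted p = 0.00165), *Klf6* by 0.995 (adjusted p = 0.00422) and *Klf2* by 2.47 (adjusted p = 0.00825). These Krüppel-like and BTG genes passed whichever library was left out. *Per1* rose by 0.71 (adjusted p = 0.0409) and was not called without control replicates 71, 72 or 73 or mutant replicates 75, 77, 78 or 79 (adjusted p from 0.0628 to 0.123).

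Other bZIP proteins that can pair with FOS or JUN had a different pattern. Of 12 tested, 5 rose and 0 fell, all 12 had fitted values above 0, and the median log2 fold change was 0.57. Among all 14990 tested genes 7.82% rose, 7.02% fell and 7376 had fitted values above 0. *Atf3*, a stress-induced repressor, rose from 3.69 ± 0.568 to 18.3 ± 8.93 CPM, and *Atf4*, the factor of the amino acid response, from 192 ± 17.8 to 453 ± 103 CPM. *Jdp2*, a JUN dimerization partner that represses AP-1, rose from 2.51 ± 0.671 to 8.97 ± 2.92 CPM (log2 fold change 1.83, adjusted p = 0.00247, edgeR), and *Maf* from 34.9 ± 11.3 to 79.4 ± 17.8 CPM (1.19, adjusted p = 0.00521). For these 4 genes control replicate 76 was at 4.09, 207, 1.98 and 48.6 CPM, below every mutant library. *Atf2* rose by 0.43 (adjusted p = 0.0400) and was not called without control replicates 71, 72 or 73 or mutant replicates 75, 77, 78 or 79 (adjusted p from 0.0551 to 0.109).

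Among 23 kinases and factors upstream of the immediate early genes, 2 rose and 2 fell, beside 14.8% of all tested genes called in either direction. *Mapk3*, which encodes ERK1, rose by 0.42 (adjusted p = 0.0350, edgeR). *Rps6ka3* rose by 0.67 (adjusted p = 0.0231), *Rps6ka1*, like it a gene for an RSK kinase downstream of ERK, fell by 0.52 (adjusted p = 0.0283), and *Mapk11*, for a p38 kinase, fell by 0.81 (adjusted p = 0.0344). Each of these 4 calls was lost without 4 to 6 of the 9 libraries, with adjusted p-values up to 0.124.

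Of 14 feedback inhibitors, 3 rose and 0 fell, beside 7.82% and 7.02% of all tested genes. *Nab1*, a corepressor of EGR proteins, rose from 55.1 ± 7.70 to 95.9 ± 8.06 CPM (log2 fold change 0.80, adjusted p = 0.00196, edgeR), and *Dusp4*, an ERK phosphatase, from 14.4 ± 1.86 to 31.7 ± 10.9 CPM (1.14, adjusted p = 0.00744). Both passed whichever library was left out. *Zfp36l1*, which promotes decay of AU-rich RNAs, rose by 0.51 (adjusted p = 0.0361) and was not called without control replicates 71, 72 or 73 or mutant replicates 75, 77, 78 or 79 (adjusted p from 0.0567 to 0.0947). The most abundant, *Spry1*, had 164 ± 33.8 and 185 ± 53.6 CPM (adjusted p = 0.601).

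Of 14 textbook AP-1 target genes, 9 had enough reads to be tested. Among these 4 rose and 1 fell, beside 7.82% and 7.02% of all tested genes. *Ccnd1*, the cyclin of early G1, fell by 1.23 (adjusted p = 0.0438, edgeR), from 67.2 ± 34.8 to 28.7 ± 13.0 CPM, with control replicate 76 at 28.7 CPM. It was not called without control replicates 71, 72 or 73 or mutant replicates 75, 77, 78 or 79 (adjusted p from 0.0663 to 0.128). *Vim* (1.02), *Fn1* (1.56), *Cd44* (0.72) and *Hmox1* (1.55, all log2 fold changes) rose and passed whichever library was left out. *Vim* and *Fn1* are also transcripts of stromal cells, whose markers were higher in the same libraries. The most abundant of the list, *Mmp14*, had 271 ± 40.2 and 226 ± 42.7 CPM (adjusted p = 0.239).

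Tissue dissociation can induce heat shock genes together with the immediate early genes. Of 14 tested, 4 rose and 0 fell, beside 7.82% and 7.02% of all tested genes. Those that rose were *Hspb1*, *Dnajb1*, *Hspe1* and *Hsf1*, with log2 fold changes of 1.39, 1.30, 0.60 and 0.55. The median log2 fold change of the 14 was 0.34. The summed level of the 14 genes was 7676 to 8390 CPM in control and 8020 to 11611 CPM in mutant libraries, and control replicate 76 was the highest control library. Their part in the result for the AP-1 and EGR genes was not tested. *Dnajb1* and *Hsf1* passed whichever library was left out. *Hspe1* was not called without control replicates 72 or 73 or mutant replicate 78, nor *Hspb1* without control replicates 72 or 73 or mutant replicates 74, 75 or 78, with adjusted p-values from 0.0522 to 0.0978. *Hsp90ab1*, the most abundant, had 2710 ± 110 and 3004 ± 309 CPM (adjusted p = 0.392).

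**Figure D4:**
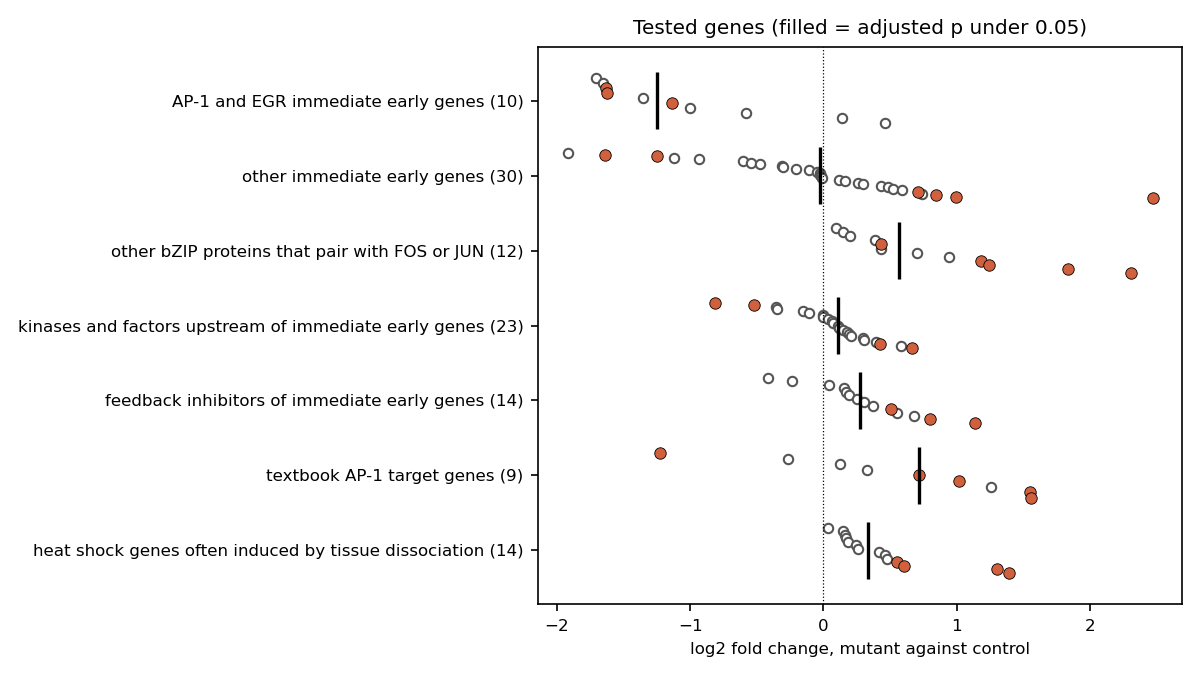
Log2 fold change of mutant against control for the tested genes of 7 lists (number tested in parentheses), filled where the adjusted p-value was under 0.05, with a bar at the median of each list. The median is −1.25 for the 10 AP-1 and EGR genes and between −0.02 and 0.72 for the other 6 lists.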

How the data were processed

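RNA was reverse-transcribed and amplified from sorted cells with a low-input kit, and libraries were poly(A)-selected without strand information. The submitters' processing notes name STAR, DESeq2 and build mm10, and the counting tool is not given in the sources used here. The authors deposited read counts per gene and library, which were used here. The authors' FPKM values, normalized signal means per genotype, log2 fold changes and p-values, also deposited, were not used.

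The test was that of edgeR 4.0.16, run in R 4.3.3 (filterByExpr, TMM, robust quasi-likelihood test, mutant against control, Benjamini-Hochberg over all 14990 tested genes, threshold 0.05), a step tested on simulated data. All 10 members passed the filter. The identifier column matched GENCODE M21 for 16158 of 24889 symbols, so genes were matched by symbol, and the myeloid marker *Adgre1* was not matched. The members and gene lists were chosen with earlier results of these data known. Named genes are all members and, from each other list, the genes past the threshold and the most abundant one. The most abundant gene of the upstream list is not reported here. Each library was left out in turn. Further alternatives were a surrogate variable (1, sva 3.50.0), limma-voom (limma 3.58.1) with quality weights, DESeq2 1.42.0, scaling by RLE or by upper quartiles, a minimum of 10 counts per library and no filter. The library number as a covariate and edgeR without robust estimation were added after the values were seen.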

Additional observations from a re-analysis of the deposited data

Results flagged for a closer look

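Of the 10 AP-1 and EGR genes and the other named genes, 10 of 112 groups of libraries had 1 library farther from the rest than a limit that chance passes in about 1 of 20 groups. Control replicate 76 was low for *Fos*, at 85.9 CPM with the nearest control library at 802 CPM, and for *Fosb*, at 3.67 against 22.6 CPM. Mutant replicate 74 was high for *Fosl2*, at 10.995 against 7.58 CPM, and mutant replicate 75 for *Ier2*, at 403 against 244 CPM. Among other genes, control replicate 76 was high for *Per1* (10.9 against 8.01 CPM) and control replicate 71 low for *Rps6ka1* (55.9 against 85.1 CPM). Mutant replicate 79 was low for *Klf6* (56.9 against 90.3 CPM), mutant replicate 77 low for *Nab1* (82.0 against 95.9 CPM), mutant replicate 78 high for *Hmox1* (36.8 against 18.6 CPM) and mutant replicate 75 high for *Pdgfra* (118 against 48.5 CPM).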

How the results depend on the processing

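The number of AP-1 and EGR genes that fell was 3 in the edgeR test, 6 with DESeq2, 6 without robust estimation, 1 when no filter was used, 1 with a surrogate variable (*Ier2* in both), 7 with limma-voom, and 0 with the library number as a covariate. Leaving out 1 library gave 1 to 7 genes. The 7 genes came from dropping control replicate 76, and 1 gene remained called (*Ier2*) after dropping control replicate 71, 72 or 73 or mutant replicate 77, 78 or 79. The cause was not tested. *Ier2* passed in 17 of 18 alternatives. The sign turned for *Fosl2* without control replicate 76 (−0.062) or mutant replicate 74 (−0.018), over a range of −0.062 to 0.27 with 1 library left out, and for *Fos* (0.072) and *Egr2* (0.59) with the library number as a covariate. With limma-voom 10 other immediate early genes, 8 upstream genes, 5 feedback inhibitors and 4868 genes in all passed, against 6, 4, 3 and 2225, and without a filter 3 AP-1 targets passed, against 5. With the library number 293 genes passed in all. With 1 library left out, the ranges were 3 to 8 other immediate early genes (3 without control replicate 72), 2 to 6 heat shock genes (2 without control replicates 72 or 73 or mutant replicate 78) and 1046 to 3136 genes in all (1354, 1272 and 1046 after dropping control replicates 71, 72 and 73, and 1336 after dropping mutant replicate 78). For upstream genes the range was 0 to 7, with 7 when mutant replicate 74 was dropped, 2 for control replicate 71 and 1 for mutant replicate 75. The number was 0 in edgeR for control replicates 72 or 73 or mutant replicate 78. Each of those fits had 6 of 23 at an unadjusted p-value under 0.05. All tested genes gave 3867 of 15222, 3802 of 15267 and 3980 of 14850, in the same order. No paired analysis was possible because the genotypes share no replicate number.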
